A study of Arabidopsis thaliana with 12 samples.

Results

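ALADIN (AT3G56900) is the gene after which the plant line of this study is named, and it is described here together with the 8 measured genes around it on chromosome 3 of Arabidopsis thaliana. The genes were chosen by their place: ALADIN and the neighbours AT3G56840, AT3G56870, AT3G56880, AT3G56890, AT3G56891, AT3G56920, AT3G56930 and AT3G57000, each with 1 probe set of its own. They are 9 of the 17481 probe sets linked to a gene and tested, out of 38408 in the table. Between the first and the last of them the RefSeq annotation of assembly TAIR10.1 lists 26 genes, of which 18 code for proteins. No probe set linked to the other 9 coding genes was analysed here, among them PSRP5, which lies between ALADIN and AT3G56920. None of the 9 measured genes carries a symbol in that annotation, so locus numbers are used throughout, with the name ALADIN for AT3G56900.

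Roots and shoots of seedlings aged 10 days were measured separately on Affymetrix Arabidopsis Gene 1.0 ST arrays. The arrays formed 4 groups of 3 biological replicates: roots labelled aladin, wild-type roots, shoots labelled aladin and wild-type shoots. The wild type was the accession Wassilewskija-4, which the design text gives as the wild type of the mutant. All seedlings grew without further treatment on half-strength Murashige and Skoog medium with sucrose and agar under long days. The labels give neither the allele nor its position, nor whether a foreign promoter is present, nor how many plants made up a replicate. The p-values set each difference against the spread between arrays within the 4 groups, and hold for these 12 samples.

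ALADIN belongs to the nuclear pore complex, the channel through which proteins and RNA pass between nucleus and cytoplasm. It is a WD-repeat protein, and in humans its loss causes triple-A syndrome. The genes beside it were taken for their position and not for their function. By their known families, AT3G56920 and AT3G56930 encode DHHC-type S-acyltransferases, which attach fatty acids to proteins, and AT3G56880 encodes a VQ-motif protein. AT3G56891 encodes a protein with a heavy-metal-associated domain, AT3G56840 an L-2-hydroxyglutarate dehydrogenase, and AT3G57000 a relative of a yeast protein of ribosome assembly in the nucleolus.

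The signals are log2 values made by RMA, a method that corrects, normalizes and summarises probe brightness, so a difference of 1 is a 2-fold change. Array medians lay between 5.86 and 6.0. Pearson's r between arrays of a group was 0.99 to 0.993 in root and 0.983 to 0.987 in shoot. The small number of arrays limits the precision. Each organ was checked with markers. The 6 measured of 9 listed green-tissue genes averaged 6.68 to 7.19 in the root arrays and 10.77 to 10.89 in the shoot arrays, and the 2 measured of 9 listed root genes, EXPA7 and EXPA18, averaged 7.04 to 7.76 in root and 4.79 to 5.29 in shoot. Differences below are aladin minus wild type, with the standard error (SE) from limma and a Benjamini-Hochberg adjusted p over all 17481 probe sets. A gene is said to have risen or fallen where that adjusted p was below 0.05.

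The first comparison asks what the named gene itself did. Its signal was far higher, not lower, in the arrays labelled aladin. In root ALADIN read 12.58, 12.73 and 12.75 in the arrays labelled aladin, against 8.42, 8.40 and 8.36 in wild type. In shoot it read 12.41, 12.35 and 12.41 in the arrays labelled aladin, against 7.71, 7.80 and 7.71 in wild type. The lowest aladin array lay 4.16 above the highest wild-type array in root and 4.56 above it in shoot. The difference in root was 4.29 (SE 0.07, 19.6-fold, adjusted p = 1.91e-11 by limma, n = 3 each). In shoot it was 4.65 (SE 0.07, 25.1-fold, adjusted p = 7.56e-12 by limma, n = 3 each). By size this was the largest of all 17481 differences in shoot and number 3 in root. Because the signal of the named gene does not show a loss of its transcript, directions are those of the arrays labelled aladin. The labels do not say where the probes lie relative to the mutation.

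In the line labelled aladin, ALADIN was higher in root than in shoot, by 0.30 (SE 0.07, adjusted p = 0.00408 by limma). In the wild type it was also higher in root, by 0.66 (SE 0.07, adjusted p = 9.28e-06 by limma). The order of its levels was thus aladin root, aladin shoot, wild-type root and wild-type shoot, with no overlap between any neighbouring groups. The genotype difference was 0.36 smaller in root than in shoot, which did not pass (95% interval -0.59 to -0.12 before adjustment, adjusted p = 0.124 by limma). With a trend and robust prior this difference between organs did pass (-0.36, adjusted p = 0.0165).

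**Figure D1:**
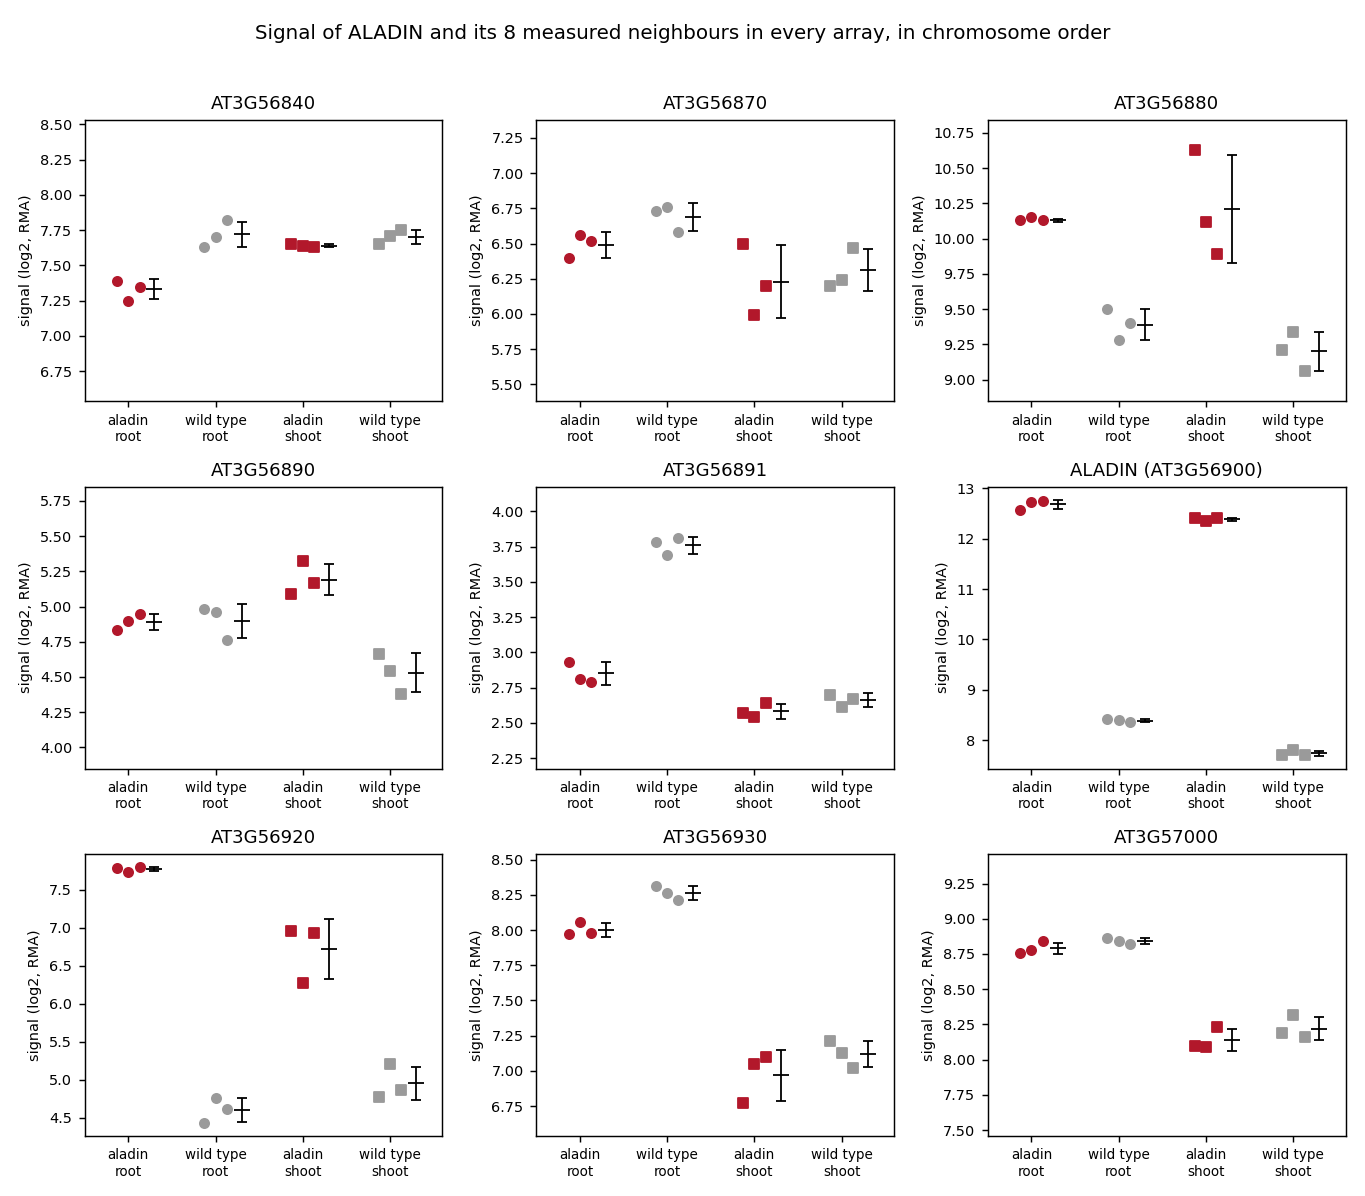
RMA signal (log2) of ALADIN and its 8 measured neighbours in chromosome order, with 1 point per array (red, labelled aladin; grey, wild type; circles, root; squares, shoot) and the mean ± SD of 3 arrays beside each group in black. Each panel has its own vertical range of at least 2 log2 units. ALADIN and AT3G56920 separate the genotypes widely in both organs, and AT3G57000 separates the organs but not the genotypes.

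Among the 9 genes, 5 passed the test in root and 4 in shoot. In root ALADIN, AT3G56920 and AT3G56880 rose and AT3G56840 and AT3G56891 fell, where 7.64% of all tested probe sets passed (4.63% higher and 3.01% lower in the arrays labelled aladin). In shoot ALADIN, AT3G56920, AT3G56880 and AT3G56890 rose and none fell, where 2.96% passed (1.49% higher and 1.47% lower). The 3 genes ALADIN, AT3G56920 and AT3G56880 rose in both organs, which 1.1% of all tested probe sets did in the same direction. AT3G56870, AT3G56930 and AT3G57000 passed in neither. The median difference of the 9 genes was -0.05 in root and -0.06 in shoot, beside -0.04 and -0.02 over all tested probe sets. The groups did not overlap for 7 of the 9 genes in root, against 31.7% of all tested probe sets, and for 5 in shoot, against 19%. The 5 in shoot include AT3G56840, whose nearest values both read 7.65 after rounding. Between root and shoot, 7 of the 9 differed in the line labelled aladin, where 62.1% of all tested probe sets did, and 6 in the wild type, where 58.8% did.

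AT3G56920, the S-acyltransferase gene that is the nearest measured gene on the side of higher locus numbers, rose with ALADIN in both organs. In root it read 7.78, 7.73 and 7.79 in the arrays labelled aladin, against 4.43, 4.76 and 4.62 in wild type. In shoot it read 6.95, 6.27 and 6.93 in the arrays labelled aladin, against 4.77, 5.20 and 4.87 in wild type. The groups were apart in both organs, by 2.97 in root and 1.07 in shoot, and 1 shoot array labelled aladin lay below the other two. The rise was 3.16 in root (SE 0.17, 8.96-fold, adjusted p = 1.35e-06 by limma), the fourth largest of all differences there. It was 1.77 in shoot (SE 0.17, 3.41-fold, adjusted p = 3.09e-04 by limma), number 17 by size. The wild-type root values lay not far above 4.1, the 25th percentile of the mean signals of all probe sets. How far they stood above background is not known, so the folds are those of the signal.

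The rise of AT3G56920 was larger in root than in shoot by 1.39 (SE 0.25, adjusted p = 0.0131 by limma), where 2.15% of all tested probe sets passed this test of the difference between organs. The SD of its 3 values was 0.03 in aladin root and 0.16 in wild-type root, and 0.39 in aladin shoot and 0.22 in wild-type shoot. In the line labelled aladin it was higher in root than in shoot by 1.05 (SE 0.17, adjusted p = 2.21e-04 by limma). In the wild type its level did not pass as different between organs, with a root minus shoot difference of -0.35 (SE 0.17, adjusted p = 0.107 by limma). Without aladin shoot replicate 2, whose value was the low one, that wild-type difference passed at the same size (-0.35, adjusted p = 0.0264). The order of its levels was thus aladin root, aladin shoot, wild-type shoot and wild-type root, with the wild-type pair not past the test.

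AT3G56930, the next measured gene and also an S-acyltransferase gene, did not rise with them. In root it read 7.97, 8.06 and 7.98 in the arrays labelled aladin, against 8.31, 8.26 and 8.21 in wild type. In shoot it read 6.77, 7.05 and 7.10 in the arrays labelled aladin, against 7.21, 7.13 and 7.02 in wild type. The root groups stood 0.16 apart and the shoot groups overlapped. Its difference in root was -0.26 (SE 0.10, 95% interval -0.47 to -0.05 before adjustment, adjusted p = 0.144 by limma). In shoot it was -0.15 (95% interval -0.36 to 0.06, adjusted p = 0.459 by limma). Its level was higher in root than in shoot by 1.03 in the line labelled aladin (adjusted p = 1.55e-06 by limma) and by 1.14 in the wild type (adjusted p = 6.25e-07 by limma). Of all tested probe sets, 62.1% and 58.8% passed in these comparisons of organs.

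AT3G57000, the outermost gene on this side, differed little between genotypes. Its root values were 8.76, 8.78 and 8.84 in the arrays labelled aladin, against 8.86, 8.84 and 8.82 in wild type, and its shoot values were 8.10, 8.09 and 8.23 in the arrays labelled aladin, against 8.19, 8.32 and 8.16 in wild type. The genotypes overlapped in both organs. The difference was -0.05 in root (95% interval -0.21 to 0.12, adjusted p = 0.828 by limma) and -0.08 in shoot (95% interval -0.25 to 0.08, adjusted p = 0.639 by limma). It too was higher in root than in shoot, by 0.65 in the line labelled aladin (adjusted p = 1.12e-05 by limma) and by 0.62 in the wild type (adjusted p = 1.87e-05 by limma).

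On the side of lower locus numbers, the gene directly beside ALADIN moved the other way. AT3G56891, the gene with the heavy-metal-associated domain, read 2.93, 2.81 and 2.79 in aladin root, against 3.78, 3.69 and 3.81 in wild-type root. In shoot it read 2.57, 2.54 and 2.64 in the arrays labelled aladin, against 2.70, 2.61 and 2.67 in wild type. Wild-type root stood above the 3 other groups, and aladin root lay within 0.19 of the wild-type shoot mean, while the shoot groups overlapped. The signal fell in root, with a difference of -0.92 (SE 0.08, adjusted p = 1.7e-05 by limma), against -0.07 in shoot (95% interval -0.24 to 0.09, adjusted p = 0.674 by limma). The difference between organs passed (-0.84, SE 0.11, adjusted p = 0.00178 by limma). Since the wild-type shoot values already lay below those of aladin root, a smaller effect in shoot and a signal with little room to fall there cannot be told apart. In the line labelled aladin the gene was higher in root than in shoot by 0.26 (adjusted p = 0.00994 by limma). That call ended with a trend and robust prior (adjusted p = 0.0583) and with the arrays centred on their medians (adjusted p = 0.0761) or 75th percentiles (adjusted p = 0.064). In the wild type the margin was 1.10 (adjusted p = 8.53e-08 by limma).

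The probe set of AT3G56891 was the only dim one of the 9, with all 12 values below 4.1, the 25th percentile of the mean signals of all probe sets. No detection calls were used here, so how far its signal stood above background is not known and no fold is given for its fall. Green-tissue markers were also measured in root: of the 6, RCA (0.61) and PSBW (0.47) rose, PSBY fell by 0.44 and 3 did not pass. Their mean level was 6.68 to 7.19 in aladin root, against 6.68 to 6.88 in wild-type root. The mean of the 2 root markers was 7.04 to 7.19 in aladin root, against 7.07 to 7.76 in wild-type root, and neither passed. Their part in the fall of AT3G56891 was not tested. In tissue extracts of this kind, fewer cells of a type and less RNA per cell cannot be told apart.

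AT3G56890, next in line, differed in shoot. It read 5.09, 5.32 and 5.17 in aladin shoot, against 4.66, 4.54 and 4.38 in wild-type shoot, and 4.83, 4.90 and 4.95 in aladin root, against 4.98, 4.96 and 4.76 in wild-type root. The shoot groups were 0.43 apart and the root groups overlapped. The rise in shoot was 0.67 (SE 0.10, 1.59-fold, adjusted p = 0.00557 by limma), against -0.01 in root (95% interval -0.22 to 0.21, adjusted p = 0.987 by limma). Fitted on the shoot arrays alone, with their own spread, the shoot difference had an adjusted p of 0.0868. The wild-type shoot values lay not far above 4.1, and how far they stood above background is not known.

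The genotype difference of AT3G56890 was lower in root than in shoot by 0.67 (SE 0.14, adjusted p = 0.0334 by limma). This call ended without any one of 9 of the 12 arrays, all but wild-type root replicate 3, aladin shoot replicate 1 and wild-type shoot replicate 1, with adjusted p of 0.0564 to 0.0908, while the difference stayed between -0.74 and -0.60. It also ended with a trend and robust prior (adjusted p = 0.071) and when all probe sets of the table were tested (adjusted p = 0.0604). The organ difference of this gene ran in opposite directions in the genotypes. Root minus shoot was -0.30 in the line labelled aladin (adjusted p = 0.021 by limma) and 0.37 in the wild type (adjusted p = 0.00677 by limma). The call in the line labelled aladin ended without aladin root replicate 1 (adjusted p = 0.067) or replicate 2 of aladin shoot (adjusted p = 0.0819). A trend and robust prior ended it as well (adjusted p = 0.0675).

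AT3G56880, the VQ-motif gene, rose in both organs. Its root values were 10.13, 10.15 and 10.13 in the arrays labelled aladin, against 9.50, 9.28 and 9.40 in wild type. Its shoot values were 10.63, 10.12 and 9.89 in the arrays labelled aladin, against 9.21, 9.34 and 9.06 in wild type. The groups were apart by 0.63 in root and 0.55 in shoot. The 3 aladin root arrays were nearly equal (SD 0.01), whereas the aladin shoot arrays spread most among the groups of this gene (SD 0.38). The rise was 0.74 in root (SE 0.16, 1.67-fold, adjusted p = 0.0117 by limma) and 1.01 in shoot (SE 0.16, 2.02-fold, adjusted p = 0.006 by limma). The root call ended when replicate 2 of wild-type root was left out (0.68, adjusted p = 0.0535). The shoot call ended in a fit on the shoot arrays alone (adjusted p = 0.104). The rises did not pass as different between organs (-0.27, 95% interval -0.75 to 0.21, adjusted p = 0.671 by limma). Root and shoot levels overlapped within each genotype and did not pass as different in either (adjusted p = 0.675 in the line labelled aladin and 0.303 in the wild type, by limma).

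The 2 outer genes on this side, AT3G56870 and AT3G56840, showed small differences. AT3G56870 read 6.40, 6.56 and 6.52 in aladin root, against 6.73, 6.76 and 6.58 in wild-type root, a difference of -0.20 (95% interval -0.47 to 0.08, adjusted p = 0.448 by limma). In shoot it read 6.50, 5.99 and 6.20 in the arrays labelled aladin, against 6.20, 6.24 and 6.47 in wild type, a difference of -0.07 (95% interval -0.35 to 0.20, adjusted p = 0.83 by limma). The root groups were 0.02 apart and the shoot groups overlapped. In the line labelled aladin root exceeded shoot by 0.26 (adjusted p = 0.0938 by limma), which passed without aladin shoot replicate 1 (0.39, adjusted p = 0.0123). In the wild type the margin was 0.38 (adjusted p = 0.0205 by limma). That call ended without replicate 1 or 2 of wild-type root or replicate 1 or 2 of wild-type shoot (adjusted p of 0.0577 to 0.0682) and with quantile normalization (adjusted p = 0.0694).

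AT3G56840, the L-2-hydroxyglutarate dehydrogenase gene, read 7.39, 7.25 and 7.35 in aladin root, against 7.63, 7.70 and 7.82 in wild-type root. In shoot it read 7.65, 7.64 and 7.63 in the arrays labelled aladin, against 7.65, 7.71 and 7.75 in wild type. The shoot groups thus met at the precision printed. Aladin root alone stood below the 3 other groups, whose means lay between 7.64 and 7.72. The fall in root was -0.39 (SE 0.08, 1.31-fold lower, adjusted p = 0.00823 by limma), and the shoot difference was -0.06 (95% interval -0.23 to 0.10, adjusted p = 0.722 by limma). The difference between organs did not pass (-0.32, SE 0.11, adjusted p = 0.18 by limma). Root was below shoot by 0.31 in the line labelled aladin (adjusted p = 0.00404 by limma), while in the wild type root minus shoot was 0.01 (adjusted p = 0.892 by limma).

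**Figure D2:**
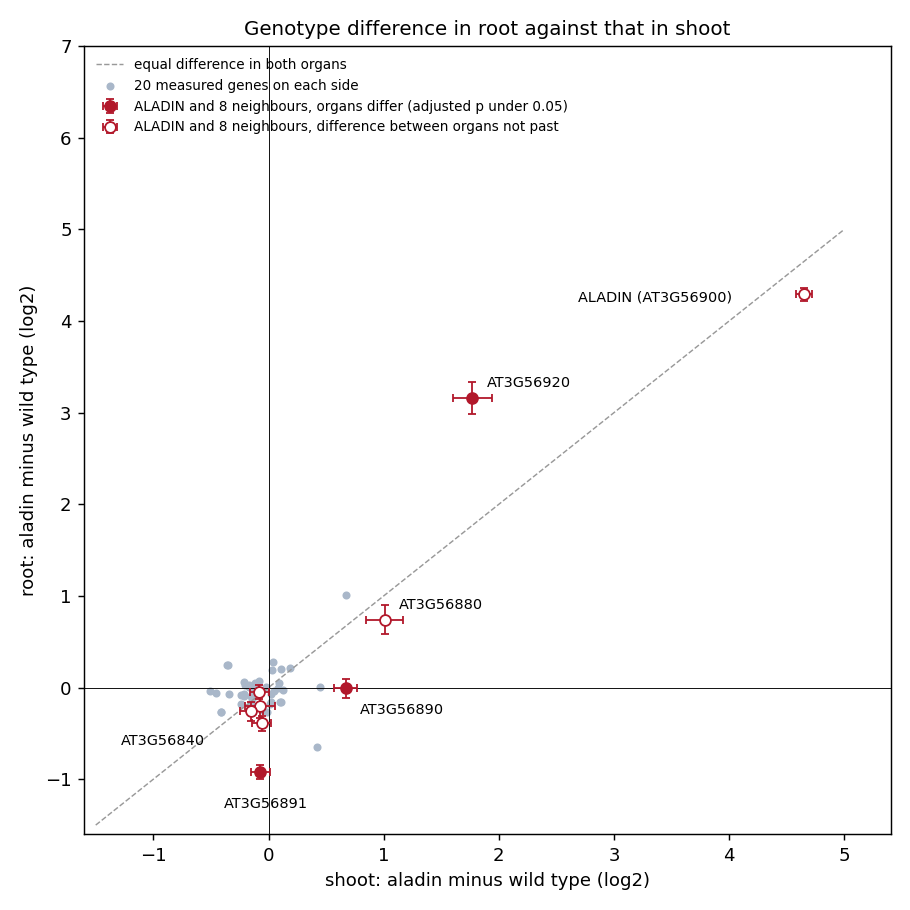
Genotype difference (aladin minus wild type, log2) in root on the vertical axis against that in shoot on the horizontal axis, for ALADIN and its 8 measured neighbours (red, with limma SE) and for the 20 measured genes beyond them on each side (grey blue). Filled red points are the 3 of these 9 genes whose difference between organs passed, AT3G56920 (1.39), AT3G56890 (-0.67) and AT3G56891 (-0.84). Grey blue points are not marked for that test, and the dashed line marks equal differences in both organs.

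Further along the chromosome most differences were small, but that of AT3G56790 in root (1.01) exceeded that of AT3G56880 there (0.74). The 20 measured genes before AT3G56840 and the 20 after AT3G57000, with 41 probe sets, had differences of -0.65 to 1.01 in root and -0.51 to 0.67 in shoot. Their median size without regard to sign was 0.09 in root and 0.15 in shoot, beside 0.13 in each organ over all tested probe sets. In root 2 of the 41 passed, where 7.64% of all tested probe sets did. They were AT3G56790 as higher (1.01, SE 0.25, adjusted p = 0.0287 by limma) and AT3G57020 as lower (-0.65, SE 0.17, adjusted p = 0.0371 by limma). In shoot 1 of the 41 passed, where 2.96% of all tested probe sets did. It was the second of 2 probe sets of AT3G56770 (-0.51, SE 0.12, adjusted p = 0.049 by limma), while the first had a difference of 0.45 and did not pass. The difference between organs, which passed for 2.15% of all tested probe sets, did so for AT3G57020 (-1.07, SE 0.24, adjusted p = 0.0452 by limma). It also passed for AT3G56810 (0.60, SE 0.14, adjusted p = 0.0499 by limma), a gene that passed in neither organ alone. The first of these calls ended without any one of 9 arrays, all but aladin shoot replicate 2 and wild-type shoot replicates 2 and 3 (adjusted p of 0.0663 to 0.108), and the second without any one of 11, all but aladin root replicate 3 (0.0638 to 0.123). Quantile normalization and median centring also ended both calls (0.0782 and 0.056 for AT3G57020, 0.0626 and 0.0662 for AT3G56810), as did testing all probe sets (0.0839 and 0.0826). The calls within an organ were also near the threshold. In root that of AT3G56790 ended without aladin root replicate 1 or 2 or any 1 wild-type root array (adjusted p of 0.0575 to 0.103), and that of AT3G57020 without any 1 root array or aladin shoot replicate 1 (0.0512 to 0.129). That of AT3G56770 ended without any 1 array other than aladin root replicate 3 and aladin shoot replicate 3 (0.0574 to 0.124).

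**Figure D3:**
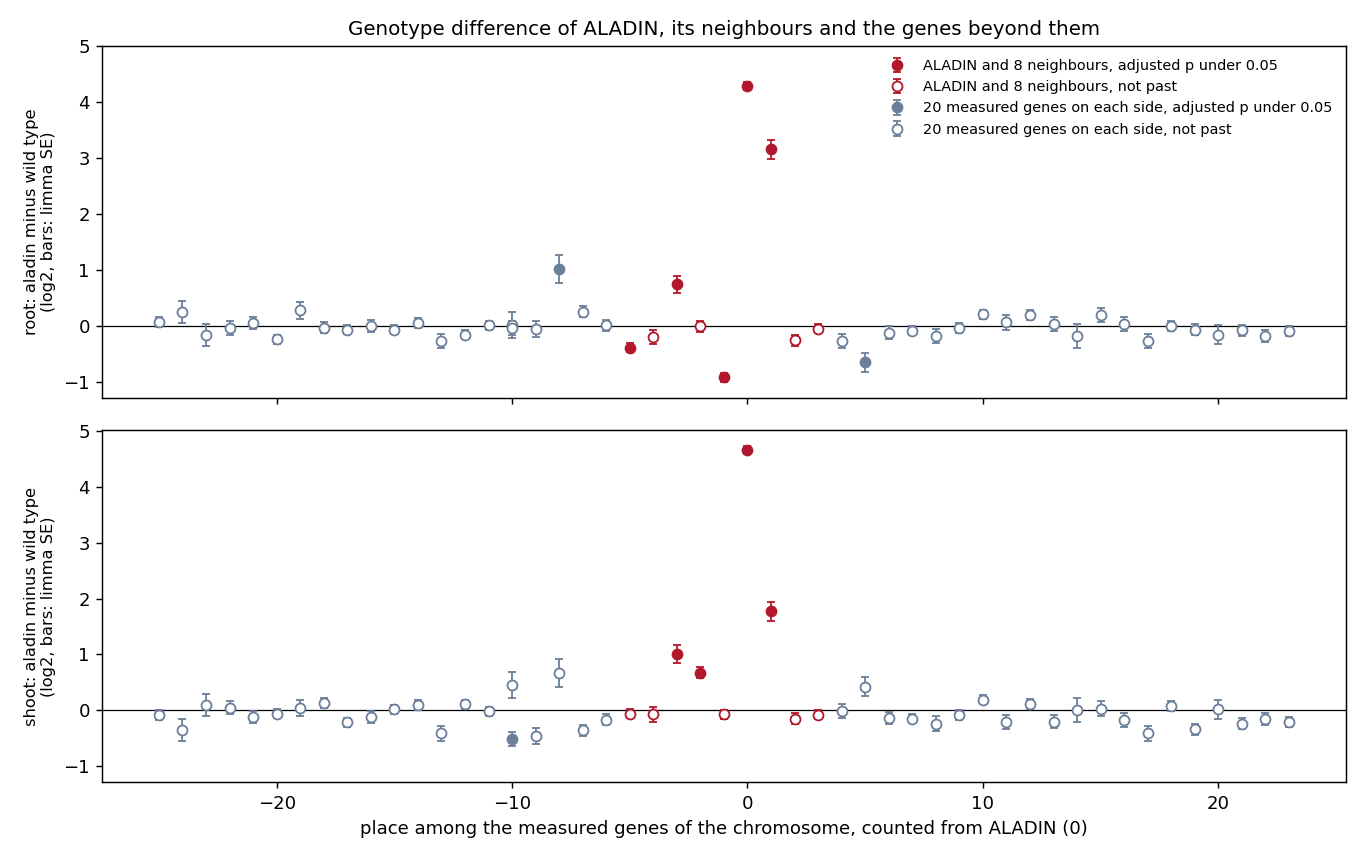
Genotype difference (aladin minus wild type, log2, with limma SE) in root (upper panel) and shoot (lower panel) for ALADIN at 0, its 8 measured neighbours (red) and the 20 measured genes beyond them on each side (grey blue), in chromosome order and with equal spacing. Filled points had an adjusted p below 0.05. ALADIN and AT3G56920 stand at 4.29 and 3.16 in root and at 4.65 and 1.77 in shoot, and no other gene shown exceeds 1.01 in either organ.

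The other genes of the nuclear pore served as a comparison for ALADIN's own pathway. Of 33 listed nuclear pore genes other than ALADIN, 19 were measured. In root AT1G59660, which encodes the mobile nucleoporin NUP98B, rose by 0.92 (SE 0.11, adjusted p = 1.97e-04 by limma), with 9.51 ± 0.07 in aladin root and 8.59 ± 0.03 in wild-type root (SD, n = 3). The remaining 18 did not pass in root, where 7.64% of all tested probe sets passed. None of the 19 passed in shoot by limma, where 2.96% of all tested probe sets did. The only 1 with an unadjusted p under 0.05 in shoot was AT1G59660 itself. Its difference there was 0.38 (SE 0.11, adjusted p = 0.0823 by limma), in the same direction as in root. AT1G73240, which encodes NDC1, the membrane nucleoporin that anchors ALADIN in animal cells, had differences of 0.01 in root and -0.01 in shoot. The median difference of the list was -0.01 in root and -0.04 in shoot, beside -0.04 and -0.02 over all tested probe sets. AT3G57350, a NUP93 gene on the same chromosome, had differences of 0.15 and 0.08.

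Across the 12 arrays, the genes whose signals were most like that of ALADIN by Pearson's r were AT1G72920 (0.9688), AT1G07135 (0.9627), AT1G66760 (0.9579), AT4G27657 (0.9495) and AT1G64380 (0.9479). Since ALADIN's values fall into a high and a low cluster by genotype, such an r mainly ranks genes by how cleanly they separate the genotypes, and arrays of a group share their source. AT3G56920 (r = 0.941) and AT3G56880 (r = 0.928) ranked 7 and 8 among the 16721 other probe sets with exactly 1 gene. The 5 genes rose in both organs, AT1G72920 by 1.70 in root and 2.42 in shoot, and AT1G07135 by 2.24 and 1.67, none as much as ALADIN. Of the other neighbours, AT3G56890 had an r of 0.682, AT3G57000 of 0.008, AT3G56930 of -0.077, AT3G56870 of -0.214, AT3G56891 of -0.426 and AT3G56840 of -0.71.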

How the data were processed

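Per the submitters' processing notes, RMA was used to make the deposited log2 values. For the software, the chip description, the level of summary and the build of the probe annotation, nothing is given in the sources used here. The method and the values, which run from 1.45 to 14.44, point to a log2 scale. Array signals compress at both ends of their range, so a fold change is that of the signal. The platform annotation linked probe sets to genes: 16722 to exactly 1 gene, 759 to several, and 20927 to none, which were left out. Gene order came from RefSeq (TAIR10.1). Its coordinates were not used because the builds could not be matched, and sequences were not used here.

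Group means were fitted to all 12 arrays with limma 3.58.1 in R 4.3.3 (lmFit, eBayes, residual degrees of freedom 8, prior 3.67), with contrasts for genotype in each organ, for their difference and for organ in each genotype. One spread per probe set is shared by the 4 groups, so errors are too small where shoot varied more than root. The threshold was an adjusted p of 0.05. The root contrast was tested on simulated data in which each probe set had the same spread in all groups. That simulation did not cover the shoot contrast or the difference between organs. The genes and lists were chosen with earlier results of these data known. Named genes were the 9 genes, the 5 most like ALADIN by Pearson's r, and those past the threshold among the nuclear pore list and the further neighbours; NDC1, NUP93B and AT3G56810 were added after their values were seen. Replicate numbers were shared between groups. Over the tested probe sets as a whole, same-numbered arrays deviated together little (r of -0.057 to 0.097 over 12 pairs), so the main fit used no block. Such an r does not show whether single genes shared a batch. Alternatives covered the prior, the probe sets tested, dim probe sets, normalization, array weights, blocks, a fit per organ and leaving out each array. Python 3.11 and matplotlib 3.10.9 drew the figures.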

Additional observations from a re-analysis of the deposited data

Results flagged for a closer look

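For 5 of the genes named, the genotype difference (aladin minus wild type, log2) differed between the organs by limma's interaction test over all 17481 probe sets, where 2.15% passed. The 5 are not a share to set beside that 2.15%, because AT3G57020 was named for its call in root. AT3G56810 was added after its value was seen. AT3G56920 differed by 1.39 (3.16 in root and 1.77 in shoot, adjusted p = 0.0131), AT3G56891 by -0.84 (-0.92 and -0.07, adjusted p = 0.00178), AT3G56890 by -0.67 (-0.01 and 0.67, adjusted p = 0.0334), AT3G57020 by -1.07 (-0.65 and 0.42, adjusted p = 0.0452) and AT3G56810 by 0.60 (0.25 and -0.36, adjusted p = 0.0499). The AT3G56891 probe set was dim on all 12 arrays (every value below 4.1), with low shoot signal in both genotypes; a smaller effect in shoot and little room to fall cannot be told apart. The AT3G56890 call ended without any one of 9 of the 12 arrays (adjusted p of 0.0564 to 0.0908), that of AT3G57020 without any one of 9 (0.0663 to 0.108) and that of AT3G56810 without any one of 11 (0.0638 to 0.123). Groups of 3 arrays are too small for a search for single outlying arrays.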

How the results depend on the processing

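The rises of ALADIN and AT3G56920 in both organs and the falls of AT3G56891 and AT3G56840 in root passed under every one of the alternatives that gave them a value, 23 for ALADIN (12 of them leaving out 1 array); leaving out dim probe sets removed AT3G56891. ALADIN's difference ran from 4.26 to 4.38 in root and from 4.60 to 4.68 in shoot. Of the 9 genes, 4 to 5 passed in root without single arrays and 4 in shoot; 2 passed in shoot with a separate fit for each organ. The difference between organs passed for 3, for 2 to 3 without single arrays, and for 1 with a replicate block within organ, where AT3G56920 (1.39, adjusted p = 0.0752) and AT3G56890 (-0.67, adjusted p = 0.105) were lost; organ contrasts cannot be had with that block. A replicate block over all arrays changed no call of the 9 genes. Between root and shoot, 6 to 8 of the 9 passed in the line labelled aladin and 5 to 7 in the wild type without single arrays. With a trend and robust prior, 5 passed in the line labelled aladin.

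Differences near 0 changed sign: AT3G56890 in root (0.01 with quantile normalization or array weights, -0.08 to 0.03 without single arrays) and AT3G56840 between wild-type organs (-0.07 with quantile normalization, -0.06 and -0.04 with median and 75th percentile centring, -0.04 to 0.05 without single arrays). Without single arrays, so did AT3G56870 in shoot (-0.21 to 0.05), the difference between organs in the genotype effect of AT3G56870 (-0.25 to 0.01) and of AT3G57000 (-0.01 to 0.08), and AT3G56880 between aladin organs (-0.24 to 0.13). None of these passed.

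The nuclear pore count was 2 in root with array weights and 1 in shoot with a trend and robust prior. Among the further neighbours, the root count of 2 became 0 with all probe sets and 1 with quantile normalization, median centring or either replicate block, and 3 with a trend and robust prior or array weights. Without single arrays it ran from 0 to 2, with 0 without aladin root replicate 1 or 2 or any wild-type root array, and 1 without aladin root replicate 3 or aladin shoot replicate 1. The shoot count of 1 became 0 with all probe sets, either centring, array weights, either block or a fit per organ. Without single arrays it ran from 0 to 2, with 0 without aladin root replicate 1 or 2, any wild-type root array, aladin shoot replicate 2 or wild-type shoot replicate 2 or 3. It was 1 without aladin shoot replicate 1 and 2 without wild-type shoot replicate 1. The call of AT3G56770 had ended in both of these settings, so other probe sets made up those counts. Over all tested probe sets, 1336 passed in root (2700 with array weights, 870 to 1415 without single arrays), 518 in shoot (862 with a trend and robust prior, 58 fitted alone, 282 to 460 without single arrays) and 375 in the interaction (594 with a trend and robust prior, 221 with all probe sets, 211 to 374 without single arrays). The cause was not tested. Signal over background is not known for these values.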
